A study of Macaca mulatta with 4 samples.

Results

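DCX, DCLK1, DCLK2, PAFAH1B1, NDEL1, MAP1B, MAP2, ASTN1 and ASTN2 are 9 genes of neuronal migration: regulators of microtubules and of the dynein motor, and the 2 astrotactins. They were taken by symbol, with no threshold on their values but with earlier results of these data known, and all 9 were present among the 30807 genes of the count table. Their UMIs (unique molecular identifiers, 1 per captured RNA molecule) were counted in the 32587 barcodes with 500 or more genes, taken here as nuclei, along the maturation of granule cells, across interneurons and other cell classes, and between LPS-exposed and Control fetuses.

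Nuclei were isolated from frozen cerebellar tissue of 4 rhesus macaque fetuses, and each fetus gave 1 library on the 10x Genomics platform. The 2 Control fetuses, a female and a male of 130 days of gestation each, received no intervention. The 2 LPS fetuses, a female of 131 days and a male of 133 days, were delivered 5 days after an intra-amniotic injection of 1 mg of lipopolysaccharide (LPS) of E. coli. Because Controls were not injected and both LPS fetuses were older than both Controls, LPS, the injection and gestational age cannot be told apart, and with 1 fetus of each sex per group each difference rests on 2 fetuses against 2.

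Granule neurons are born in the external layer of the cerebellar cortex, extend their axons, and migrate inward along the fibers of Bergmann glia before they mature in the granular layer. During this migration the nucleus is pulled toward the centrosome by dynein on a cage of microtubules, with LIS1 (the protein of PAFAH1B1) and NDEL1 as regulators of dynein and with doublecortin and the doublecortin-like kinases as proteins that bind and stabilize microtubules. Astrotactin 1 is a neuronal membrane protein in the adhesion of granule cells to glial fibers, and astrotactin 2 regulates how much of it, and of other membrane proteins, stays on the cell surface.

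The libraries held 34282015 to 61665690 UMIs and 6905 to 9256 nuclei, and the median number of UMIs per nucleus was 4506 and 4062 in the Control and LPS females but 1882 and 2308 in the Control and LPS males. Depth therefore moved with the sex of the fetus, and its part in the differences given here was not tested beyond the values stated. UTY, a gene of the Y chromosome, was found at 320.5 and 289 CPM in the free RNA of the male libraries and at 8.21 and 12.8 CPM in that of the females. Pairs of libraries shared 16 to 22 barcodes, and 7.93 to 11.7 would be shared if barcodes were drawn independently. Clusters were named from marker genes that contain none of the 9 members, and a name such as granule cell or interneuron means nuclei like that type by those markers. The granule lineage held 22483 nuclei, and the PAX2-expressing immature interneurons 1423, molecular layer interneurons 226, Golgi and glycinergic interneurons 198 and Purkinje cells 119. A cluster of 2397 nuclei with a median of 758 UMIs, of which 1871 came from the LPS male, was led by genes of ribosomal proteins and stayed unnamed. A cluster of 637 nuclei, of which 68.0% were called doublets, was likewise left out.

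Levels are given in CPM, the usual depth-scaled unit of sequencing counts, here the UMIs of a gene relative to the UMIs of all genes in the nuclei of a class in 1 fetus, as the mean ± SD of 4 fetuses. Because introns were counted and long genes with many introns collect more UMIs, a level is compared between classes for the same gene and not between genes. The granule nuclei fell into 10 clusters and from these into 5 stages: proliferating precursors (1572 nuclei), committing (2980), migrating (4618), maturing (10695) and mature granule cells (2618). Of the mature nuclei 1439 came from the LPS male. These stages rest on the same nuclei as the levels, so the differences between stages are described without a test, with the number of fetuses in which each was seen.

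DCX, which encodes doublecortin, was highest in migrating granule cells. Its level was 58.9 ± 12.7 CPM in proliferating precursors, 141 ± 15.2 in committing, 231 ± 44.0 in migrating, 103 ± 12.5 in maturing and 71.2 ± 19.8 in mature granule cells (SD, n = 4). In the migrating cells the Control female had 262 CPM, the Control male 168, the LPS female 260.0 and the LPS male 234. The lowest of these was above the highest level of any fetus in the committing cells, the next stage in order, while the ranges of all other neighbors in that order overlapped. The rise came early: log2 of the level increased by 1.26 ± 0.20 (SD, n = 4) from proliferating to committing cells and by a further 0.69 ± 0.17 to migrating cells, in 4 of 4 fetuses at each step. It then fell by 1.14 ± 0.20 from migrating to maturing and by 0.57 ± 0.33 to mature cells, again in 4 of 4 fetuses. The study used DCX as a marker of migrating granule cells, but no member was among the markers or the clustering features used here.

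DCLK1 and DCLK2 encode doublecortin-like kinases, which carry the microtubule-binding domains of doublecortin beside a kinase domain, and they did not move alike. DCLK1 was at 360.0 ± 31.5 CPM in proliferating and 311 ± 15.4 in committing cells and at 790.2 ± 106 in migrating cells, a rise of 1.34 ± 0.26 on the log2 scale from committing to migrating cells in 4 of 4 fetuses. It remained at 571 ± 68.6 and 582 ± 79.2 CPM in maturing and mature cells, and these 2 stages kept no order among the fetuses, with mature above maturing cells in 2 of 4. DCLK2 stayed within 377 to 467 CPM over the 5 stages. Its largest step was a decrease of 0.29 ± 0.19 on the log2 scale from committing to migrating cells, the step at which DCX and DCLK1 rose.

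PAFAH1B1, the LIS1 gene, had its highest level in migrating cells as well, but the range was narrow. It was 401 ± 21.1 CPM in proliferating, 389 ± 24.5 in committing, 493 ± 38.2 in migrating, 314 ± 36.4 in maturing and 263 ± 22.8 in mature cells. The step from committing to migrating cells was small and even, with a log2 difference of 0.34 ± 0.03 in 4 of 4 fetuses, and no fetus in the migrating cells was below any fetus in another stage. NDEL1, which encodes its partner on dynein, was detected at low levels and followed another course. It was highest in committing cells at 37.9 ± 13.9 CPM, with 25.6 and 27.3 CPM in the Control and LPS females and 54.4 and 44.3 CPM in the Control and LPS males, and it was at 22.4 ± 7.16 CPM in migrating and 15.2 ± 4.99 in mature cells. The ranges of all neighboring stages overlapped, but within each fetus it fell from committing to migrating cells by 0.71 ± 0.16 on the log2 scale (4 of 4).

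MAP1B and MAP2 encode microtubule-associated proteins, MAP1B of growing axons and MAP2 mainly of dendrites. MAP1B had the sharpest peak in migrating cells, where it was at 2280 CPM in the Control female, 1146 in the Control male, 2180.4 in the LPS female and 1485 in the LPS male. In the other 4 stages its mean was 669 to 805 CPM, and no fetus reached its lowest level in the migrating cells. The log2 difference was 1.31 ± 0.17 from committing to migrating and -1.14 ± 0.09 from migrating to maturing cells, each in 4 of 4 fetuses, so its rise and fall were of like size. MAP2 took the same shape with smaller steps, from 353 ± 80.6 CPM in committing to 523 ± 129 in migrating and 414 ± 84.8 in maturing cells, with log2 differences of 0.56 ± 0.17 and -0.32 ± 0.09. Its ranges over fetuses overlapped between neighboring stages.

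Both astrotactins rose from migrating to maturing cells. ASTN1 was at 349 ± 61.0 CPM in proliferating precursors, 434 ± 89.2 CPM in committing and 414 ± 80.7 in migrating cells, a difference that pointed either way (2 of 4 fetuses each), and at 600.1 ± 98.2 in maturing and 489 ± 60.8 in mature cells. From migrating to maturing cells it rose by 0.54 ± 0.10 on the log2 scale in 4 of 4 fetuses, after an earlier rise of 0.30 ± 0.09 from proliferating to committing cells, also in 4 of 4. ASTN2 made the largest step of all 9 genes. It was at 163 ± 128 CPM in committing and 149 ± 112 in migrating cells and at 2728 ± 338 in maturing and 3314 ± 665 in mature cells. In the maturing cells the Control female had 3061 CPM, the Control male 2433, the LPS female 2977 and the LPS male 2441, against 72.5, 177, 50.6 and 295 in the migrating cells of the same fetuses. The log2 difference between these stages was 4.51 ± 1.32, or 22.8-fold, and the lowest fetus of the later stage lay above the highest of the earlier one.

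The low ASTN2 levels have to be read beside free RNA, the RNA from broken cells that enters every droplet. ASTN2 was at 812 to 1479 CPM in the free RNA of barcodes with at most 100 UMIs. From markers of other cell types, 14.4 to 23.8% of the UMIs of committing and 11.7 to 18.6% of those of migrating cells were estimated to be free RNA, which alone would give a mean of 207 and 167 CPM of ASTN2. The measured level was above this estimate in 0 of 4 fetuses in committing cells and in 2 of 4 in migrating cells, the males. A level cannot lie below its own part of free RNA. For ASTN2 the estimate was therefore too high in the committing cells and in the migrating cells of both females. Its subtraction there removed too much. The step from migrating to maturing cells was 3.05 in log2 in the LPS male, which had the highest estimated share of free RNA, 3.77 in the Control male and 5.38 and 5.85 in the Control and LPS females. With the free RNA subtracted the log2 difference was 9.66, a value that depends on the 1 CPM added before the log, since both females were then at 0 CPM in the migrating cells and the Control and LPS male at 5.93 and 24.5. For the other 8 genes the level exceeded this estimate in 4 of 4 fetuses at each of the 5 stages.

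The share of nuclei with at least 1 UMI, computed as the expectation for 1000 UMIs drawn from each nucleus, showed the same for ASTN2. It was 18.5 ± 7.30% in proliferating precursors, 13.5 ± 9.004% in committing, 12.7 ± 9.32% in migrating, 81.5 ± 2.97% in maturing and 93.2 ± 4.19% in mature cells (SD, n = 4), against 14.2 ± 7.04% in endothelial cells, a class not expected to use the gene. Without thinning the shares were 39.8, 26.6, 26.8, 90.6, 98.6 and 30.5%, at median depths of 1542 to 5206 UMIs in these granule nuclei and 2224 to 5893 in the endothelial nuclei. Microglia and macrophages were the other class planned as a reference for levels. Their thinned share was 68.9 ± 4.54%, so they were not used as background for ASTN2. The thinned shares of committing and migrating cells were on average below that of endothelial cells and are read as background, although in the LPS male they were 25.5 and 25.3% against 22.1%, and in the LPS female the committing cells had 5.60% against 5.53%. The share of proliferating precursors was above that of endothelial cells in 4 of 4 fetuses. Doublets were kept in these shares, and no share without them was computed. Without doublets the ASTN2 level of precursors was nearer that of committing cells, as given below, so expression in precursors is not told from background. For DCX the thinned share was 19.7 ± 3.44% in migrating and 12.1 ± 1.67% in committing cells, against 1.48 ± 0.35% in endothelial cells, and without thinning it was 41.9, 26.9 and 6.75%. Of the granule nuclei 64 and 598 of the Control female and male and 67 and 100 of the LPS female and male had fewer than 1000 UMIs and did not enter the thinned shares, nor did 1 and 16 endothelial nuclei of the Control female and male and 0 and 3 of the LPS female and male.

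**Figure D1:**
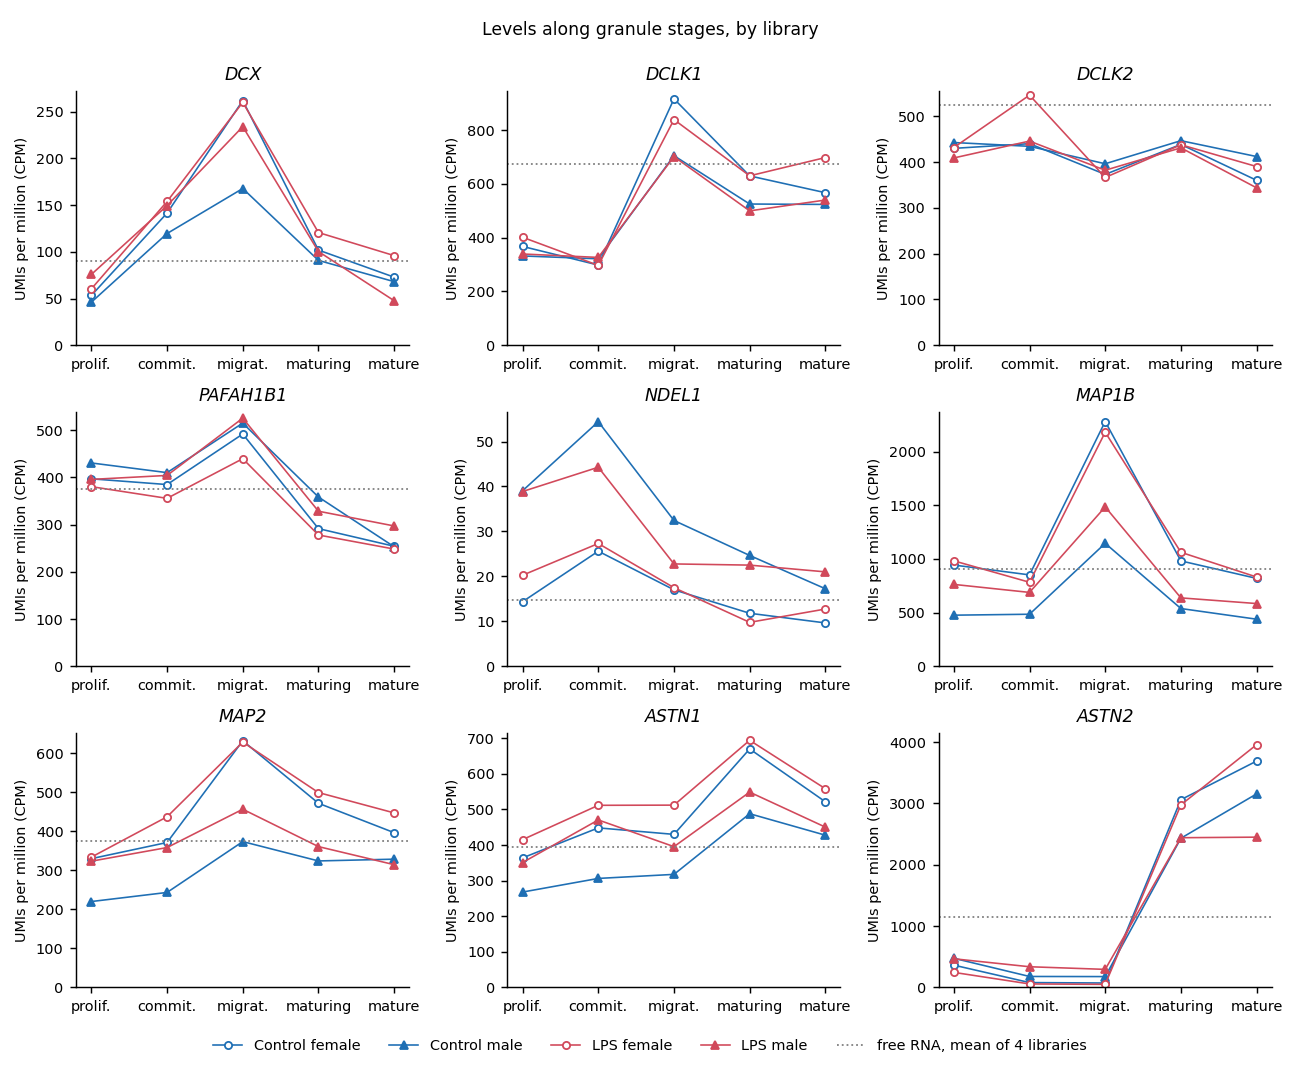
Levels of the 9 genes (CPM, linear axis from 0) in the 5 granule stages, with 1 line per library, circles for females, triangles for males, blue for Control and red for LPS; the dotted line is the mean level in free RNA itself, of which only a part enters each nucleus. DCX, DCLK1, PAFAH1B1, MAP1B and MAP2 peak in migrating cells in each library, ASTN1 and ASTN2 are highest after it, and DCLK2 stays within 377 to 467 CPM on average.

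The 10 granule clusters resolved these steps further. Migrating cells fell into cluster 4 and cluster 5, and MAP1B was at 2005 ± 607 CPM in cluster 4 and 1506 ± 483 in cluster 5, DCX at 256 ± 40.0 and 202 ± 48.6, and ASTN1 at 352 ± 76.7 and 485 ± 90.1. MAP1B and DCX were higher in cluster 4 in 4 of 4 fetuses, and ASTN1 was higher in cluster 5. Cluster 6, of 1729 nuclei, carried the markers of the maturing stage only weakly and lay between the stages: MAP1B was at 1042 ± 373 CPM, DCX at 144 ± 28.1 and ASTN2 at 531 ± 190, against 2446 ± 348 CPM of ASTN2 in cluster 1, 3592 ± 550.1 in cluster 0 and 3075 ± 222 in cluster 9, the other maturing clusters. ASTN1, by contrast, was already at 608 ± 96.9 CPM in cluster 6 and at 589 to 612 CPM in the other maturing clusters. In cluster 6 ASTN1 was thus within the range of the other maturing clusters while ASTN2 was below them in 4 of 4 fetuses. Cluster 0, named as maturing, was led by CHRM2 and NELL1, which are in the marker list of mature cells. Its ASTN2 was above that of the mature cluster 3 (3314 ± 665 CPM) in 4 of 4 fetuses.

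Among the precursors, ASTN2 was at 453 ± 103 CPM in cluster 7, which carried S-phase genes, and at 190 ± 144 in the mitotic cluster 8. The mean of the proliferating stage, 388 ± 108 CPM, exceeded the committing stage in 4 of 4 fetuses (log2 difference from proliferating to committing cells -1.54 ± 0.79). For ASTN2, committing granule cells minus proliferating precursors, this difference was -0.39 with doublets left out, -0.73 with the members among the clustering features, -0.10 at a granule resolution of 0.8 and -7.85 with free RNA subtracted, where the committing cells of all 4 fetuses were at 0 CPM and the value depends on the 1 CPM added. Of the nuclei of cluster 7, 14.2% were called doublets.

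**Figure D2:**
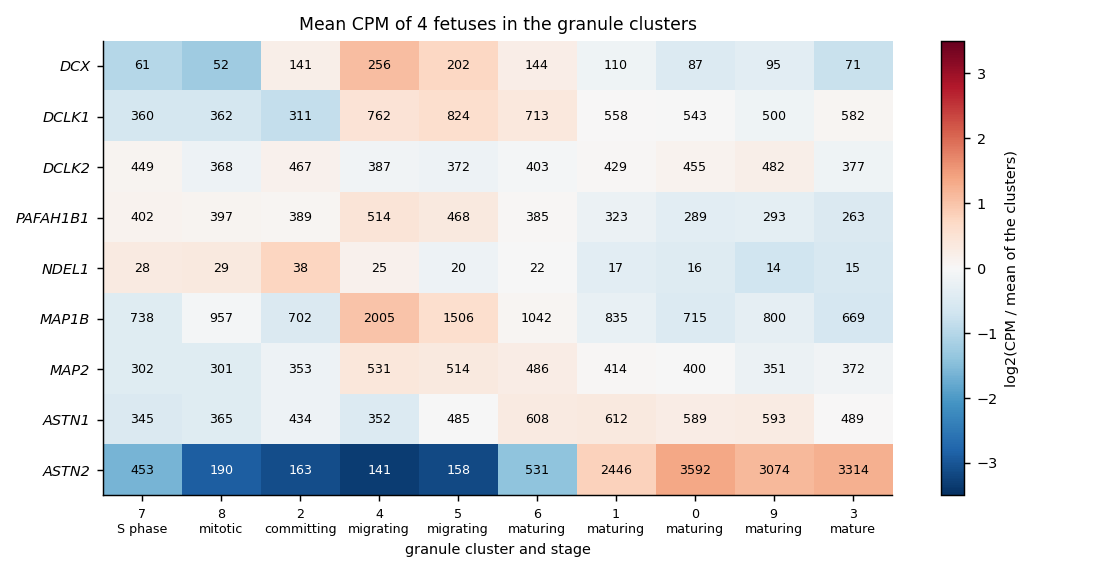
Mean level of 4 fetuses (CPM, the number in each cell) of the 9 genes in the 10 granule clusters, ordered by stage, with color for the log2 ratio to the mean of the clusters of that gene. DCX and MAP1B are highest in cluster 4, ASTN1 is at 608 in cluster 6, and ASTN2 goes from 531 in cluster 6 to 2446 in cluster 1.

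Read over all genes with a mean of 20 CPM or more in either stage, more genes were lower than higher at the step from committing to migrating cells. Of 7548 genes, 20.3% were higher in migrating cells in all 4 fetuses and 50.6% were lower. Of the 9 members 5 were higher (DCX, DCLK1, PAFAH1B1, MAP1B and MAP2) and 3 were lower (DCLK2, NDEL1 and ASTN2), and their median log2 difference was 0.34 beside -0.23 over all genes. For ASTN2 both levels were near or below the free RNA estimate, and its difference of -0.13 turned to 1.87 with free RNA subtracted. From migrating to maturing cells 24.7% of 6949 genes were higher and 42.8% lower in all 4 fetuses, and of the members 3 were higher (DCLK2, ASTN1 and ASTN2) and 6 were lower. From proliferating to committing cells, where 30.6% of 7739 genes were higher and 21.7% lower, 4 members were higher and 2 lower (DCLK1 and ASTN2). Only 1 was lower without doublets, with the members among the clustering features or at a granule resolution of 0.8, where the difference of DCLK1 was 0.011 in place of -0.21. From maturing to mature cells 18.9% of 6677 genes were higher and 22.7% lower, and of the 8 members with enough UMIs 1 was higher, ASTN2, and 5 were lower. This rise of ASTN2 holds for the pooled maturing stage only, since the maturing cluster 0 was above the mature cluster in 4 of 4 fetuses.

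Related genes were described by lists chosen by function. At the step from committing to migrating cells 20.3% of all genes were higher and 50.6% lower, with a median log2 difference of -0.23. Of the 13 partners of LIS1, NDEL1 and dynein that reached 20 CPM in either stage, of 16 in the list, such as the dynein chains DYNC1H1 and DYNC1I2, 9 were higher in migrating than in committing cells in all 4 fetuses and 3 were lower, with a median log2 difference of 0.62. Of 14 such other microtubule-associated proteins 10 were higher and 2 lower (median 0.32), of 7 tubulins 4 were higher and 2 lower (median 0.31), and of 15 genes of actin and polarity 7 were higher and 2 lower (median 0.15). At the following step to maturing cells, where 42.8% of all genes were lower and 24.7% higher, 6 of 13, 7 of 14, 4 of 7 and 11 of 15 were lower in all 4 fetuses and 4, 1, 1 and 3 were higher. The shares of the dynein partners and of the other microtubule-associated proteins that were lower were near that of all genes. The medians of the lists in this order were -0.29, -0.27, -0.63 and -0.46 beside -0.13 over all genes.

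Across interneurons DCX was highest in the immature class. It was at 228 ± 66.3 CPM in the PAX2 interneurons, with 281 and 213 CPM in the Control female and male and 278 and 140 CPM in the LPS female and male, at 135 ± 42.1 in molecular layer interneurons and at 91.6 ± 29.5 in Golgi and glycinergic interneurons. All 4 fetuses were lower in Golgi cells than in PAX2 interneurons, by 1.31 ± 0.21 on the log2 scale, and 3 of 4 were lower in molecular layer interneurons. MAP2 was lower by 0.93 ± 0.49 and DCLK2 by 0.70 ± 0.11 in Golgi cells than in PAX2 interneurons, each in 4 of 4 fetuses. Against the granule lineage as a whole, PAX2 interneurons had less MAP1B (log2 difference -0.60 ± 0.17) and more MAP2 (0.63 ± 0.20) in 4 of 4 fetuses. Of the members 5 were higher and 2 lower in PAX2 interneurons in all 4 fetuses, where 21.5% of 7214 genes were higher and 28.1% lower.

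ASTN2 differed widely between the interneuron classes. It was at 2266 and 1361 CPM in molecular layer interneurons of the Control female and male and at 1463 and 1868 CPM in those of the LPS female and male, against 170 and 220.0 CPM and 124 and 214 CPM in the Golgi and glycinergic interneurons of the same fetuses. The ranges did not overlap. In Golgi cells free RNA alone would give 116 CPM on average, and the measured level was above it in 4 of 4 fetuses. The thinned share of Golgi nuclei with ASTN2, 14.5 ± 2.53% (54.9% without thinning), was however near the 14.2 ± 7.04% of endothelial cells, so ASTN2 in Golgi cells is not told from background. PAX2 interneurons lay between them at 782 ± 375 CPM, of which the LPS male had 1337 and the others 506 to 650.1. Compared with PAX2 interneurons, ASTN2 was higher by 1.23 ± 0.57 on the log2 scale in molecular layer interneurons (4 of 4 fetuses). In Golgi interneurons it was lower by 2.03 ± 0.46 (4 of 4). With free RNA subtracted the latter difference was -3.27, with 44.3 to 115 CPM left in Golgi cells. ASTN1 was at 606 ± 88.3, 465 ± 83.9 and 543 ± 144 CPM in PAX2, molecular layer and Golgi interneurons, with overlapping ranges, although within each fetus it was lower in molecular layer than in PAX2 interneurons (log2 difference -0.39 ± 0.22).

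Over all genes, 17.2% of 7372 were higher and 22.8% lower in molecular layer than in PAX2 interneurons in all 4 fetuses, and 18.1% of 7449 were higher and 29.4% lower in Golgi than in PAX2 interneurons. Of the members 1 was higher and 5 were lower in the first of these and 0 were higher and 5 lower in the second. The molecular layer and Golgi classes were small, with 37 to 76 and 15 to 86 nuclei in a fetus, and the LPS male gave 15 Golgi nuclei.

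Purkinje cells, the output neurons of the cortex, had ASTN2 at 1578 ± 246 CPM and ASTN1 at 545 ± 54.5, and low DCLK2 (125 ± 27.4 CPM) and MAP2 (210.3 ± 58.4). Relative to the granule lineage the log2 difference was -1.76 ± 0.27 for DCLK2, -1.33 ± 0.24 for MAP1B and -0.21 ± 0.16 for ASTN2, all lower in 4 of 4 fetuses, and 0.88 ± 0.34 for NDEL1, higher in 4 of 4. These differences rest on 15 to 54 nuclei in a fetus. The granule lineage pools stages. For ASTN2 the mean of Purkinje cells lay above the 149 CPM of migrating and below the 2728 CPM of maturing granule cells. Among all 7736 genes of this comparison 22.2% were higher and 37.2% lower in 4 fetuses, and of the members 2 were higher and 5 lower.

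DCLK1, DCLK2 and MAP2 had higher mean levels in astrocytes and Bergmann glia than in any class of neurons. DCLK1 was at 2711 ± 892 CPM in astrocytes and 1898 ± 609 in Bergmann glia, above the migrating granule cells at 790.2 CPM, and its ranges did not overlap with those of any granule stage. DCLK2 was likewise highest in astrocytes at 1692 ± 216 CPM and in Bergmann glia at 1284 ± 269, and MAP2 had 921 ± 306 CPM in Bergmann glia and 792 ± 293 in astrocytes. Neighbors in these orders overlapped between fetuses, and the females exceeded the males for DCLK1 and MAP2 in both glial classes, but DCLK1 and DCLK2 were higher in astrocytes than in Bergmann glia in 4 of 4 fetuses. ASTN2 was at 2110 ± 285 CPM in microglia and macrophages, 1434 ± 175 in astrocytes and 1069 ± 209 in the oligodendrocyte lineage. In each of these it exceeded the free RNA estimate in 4 of 4 fetuses. Its means were below the 2728 and 3314 CPM of maturing and mature granule cells. In the microglia the thinned share of nuclei with ASTN2 was 68.9 ± 4.54%. Endothelial cells were low for DCX (17.9 ± 5.13 CPM), ASTN1 (80.6 ± 42.4) and ASTN2 (172 ± 58.9), the last above the free RNA estimate in 2 of 4 fetuses. They were not low for all members, with DCLK2 at 654 ± 133 CPM, PAFAH1B1 at 416 ± 58.2 and NDEL1 at 39.8 ± 16.4.

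**Figure D3:**
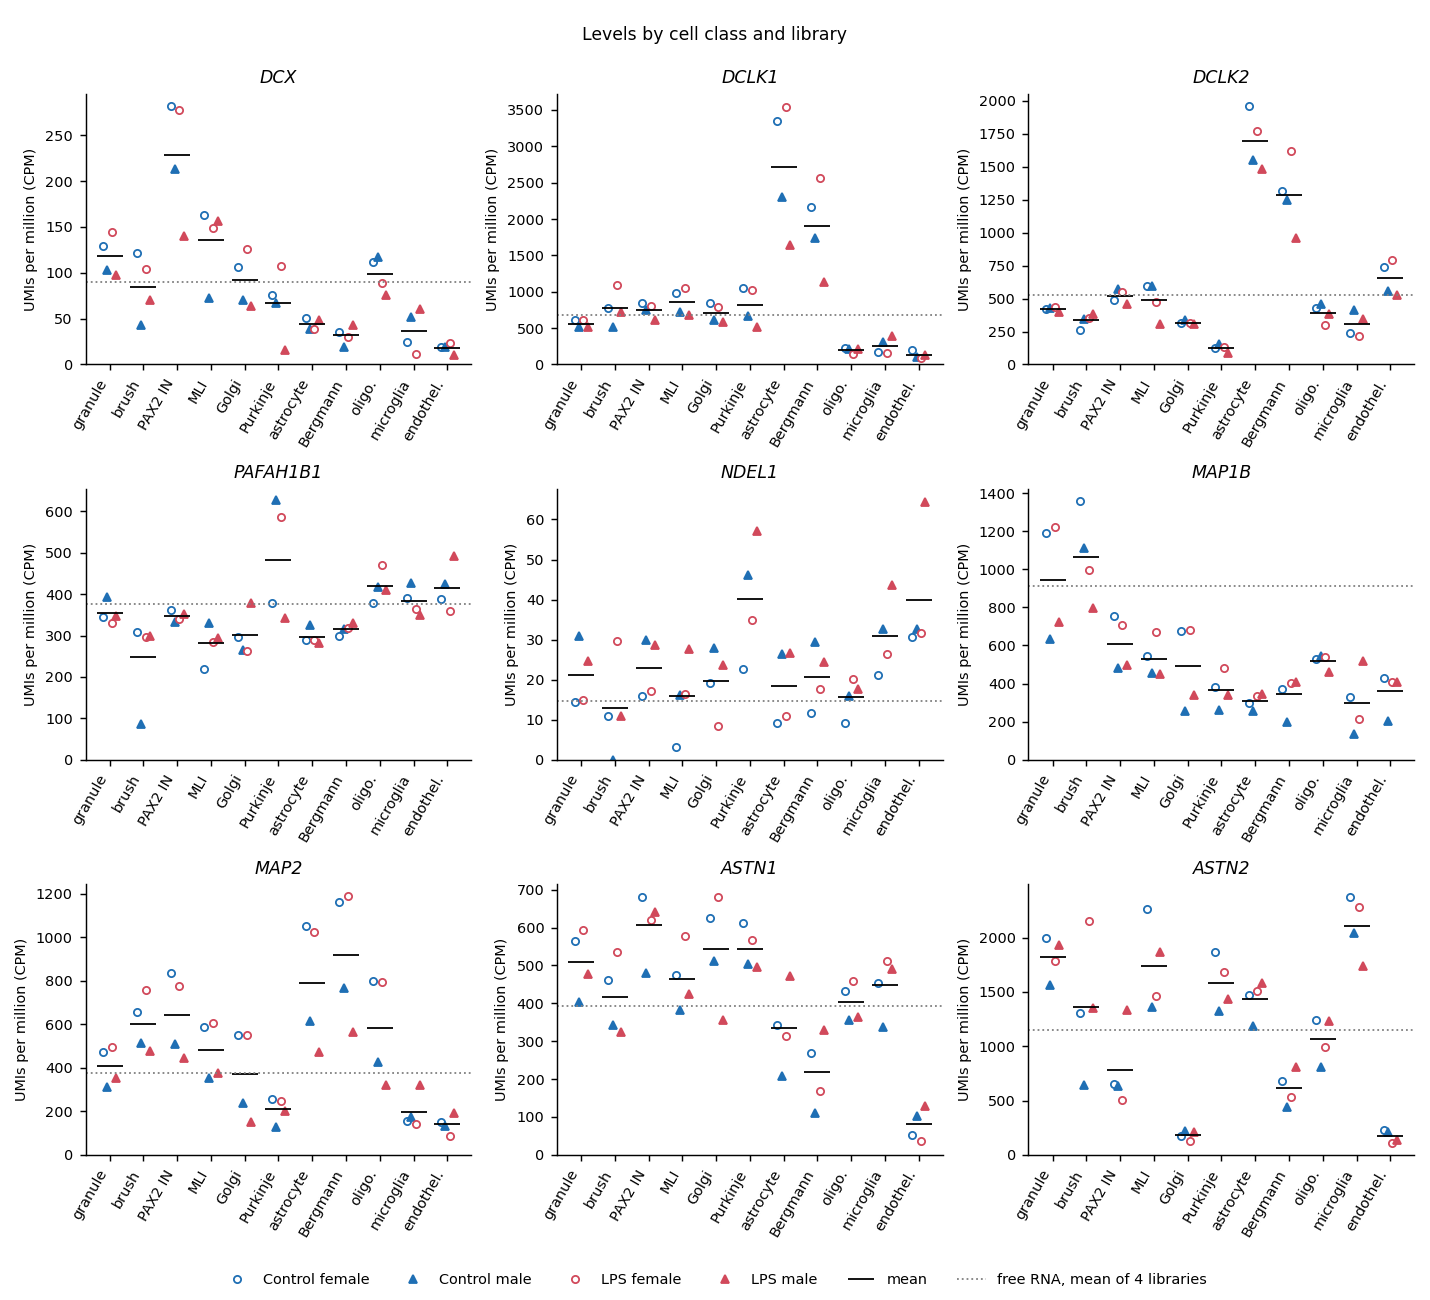
Levels of the 9 genes (CPM, linear axis from 0) in 11 cell classes (brush, unipolar brush cells; PAX2 IN, PAX2 interneurons; MLI, molecular layer interneurons), with 1 point per library, circles for females, triangles for males, blue for Control, red for LPS and a bar for the mean; the dotted line is the mean level in free RNA. With the granule stages pooled, DCX has its highest mean in PAX2 interneurons (228, beside 231 in migrating granule cells alone). DCLK1 and DCLK2 are highest in astrocytes, and ASTN2 is at 1740 in MLI but 182 in Golgi cells.

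Over the 5 granule stages and 14 other cell classes, the genes with the pattern most like each member were sought among 8240 genes with 50 CPM or more in at least 1 of these. These values are a description over 19 classes that share libraries. For DCX this was PCDHAC2, a protocadherin (Pearson's r = 0.94). For MAP1B they were ST7 (r = 0.91) and PDE4A, a phosphodiesterase (r = 0.90), and for MAP2 MIR9-1HG (r = 0.89) and LSAMP, a neuronal adhesion protein (r = 0.89). DCLK1 was like DTNA, of the dystrophin complex (r = 0.85), and DCLK2 like PHYHIPL (r = 0.85). PAFAH1B1 was most like TDG and SMARCD1 (r = 0.83 and 0.82) and NDEL1 like GCN1 and UCK2 (r = 0.89 and 0.83). ASTN1 was most like MTMR7 and PCNX2 (r = 0.91 each), and ASTN2 like CAMK4, a calcium-dependent kinase of granule cells, and FAM135B (r = 0.84 and 0.83). CAMK4 is among the markers used to name mature granule cells, so its likeness to ASTN2 may in part be built in.

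LPS was then compared with Control on UMIs summed per class and fetus, in all nuclei, in the granule lineage and its 5 stages, and in 4 other classes of neurons. No member passed the threshold in any of these 11 comparisons (edgeR quasi-likelihood test, Benjamini-Hochberg adjusted p under 0.1 and absolute log2 fold change over 0.25). Nor did any other gene: the share of genes called was 0.0% in each comparison, 0 of 14899 in the granule lineage, so the members were at the background. This test had no term for sex. With sex as a block 7 genes passed in proliferating precursors and 5 in committing cells, none a member. Without the block, the number of genes with an unadjusted p under 0.05 was 14 to 71 of the 5740 to 16138 tested. These are fewer than that threshold would pass if no gene differed, so the test was conservative. In the granule lineage the number was 28, and 276 with the block. A model without sex leaves differences between the sexes, and with them depth, in the residual variance, so its SEs and intervals hold them too. DESeq2 called 0 genes except 1 in migrating and 2 in maturing cells, none of them a member. In edgeR without the block, the smallest unadjusted p of a member was 0.207, for DCLK2 in molecular layer interneurons. The adjusted p of edgeR was then 0.9996 to 1 over all members and comparisons.

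The groups overlapped for all 9 members in all nuclei, where 4.97% of genes were higher and 4.87% lower in both LPS fetuses than in both Controls, and in the granule lineage, where 5.1% were higher and 4.44% lower. In the granule lineage DCX was at 129 and 103 CPM in the Control female and male and at 144 and 97.6 in the LPS female and male, with a log2 fold change of LPS over Control of 0.05 (SE 0.35, 95% interval -0.85 to 0.96). MAP1B was at 1188.5 and 634 CPM in the Controls and at 1222 and 722 in the LPS fetuses, in the same order of sex (log2 fold change 0.07, SE 0.50, interval -1.24 to 1.38). ASTN2 was at 2000.2 and 1559 CPM in the Controls and at 1781 and 1930.4 in the LPS fetuses (0.05, SE 0.35, interval -0.86 to 0.96). These sums mix stages in unlike shares: mature nuclei numbered 434 and 448 in the Control female and male and 297 and 1439 in the LPS female and male. For ASTN2 the log2 difference of the male pair was 0.31 in the lineage, 0.0051 in maturing and -0.36 in mature cells. The part of stage shares in the lineage fold changes was not tested. The remaining fold changes were -0.16 for NDEL1, -0.12 for PAFAH1B1, -0.04 for DCLK2, -0.02 for DCLK1, 0.09 for MAP2 and 0.14 for ASTN1, with SEs of 0.26 to 0.48. Over the 9 members the median was 0.05, beside 0.01 over all genes. The intervals leave room for changes of either direction, those of NDEL1 for a log2 fold change from -1.41 to 1.09.

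Along the stages the members' fitted log2 fold changes ran from -0.27 to 0.62. DCX had 0.46 (SE 0.34, interval -0.38 to 1.30) in proliferating precursors, where the Control female and male were at 53.3 and 46.1 CPM and the LPS female and male at 60.4 and 75.8. Both LPS fetuses lay above both Controls, as did 6.56% of 7270 genes in this stage, and without any 1 library the value was 0.31 to 0.63. In the same stage PAFAH1B1 was lower in both LPS fetuses, with log2 differences of -0.06 in the female pair and -0.12 in the male pair, where 7.66% of genes were lower. In committing cells DCX, DCLK2 and ASTN1 were higher in both LPS fetuses, as were 7.21% of 7307 genes, and no member was lower (8.59% of genes), with differences within a sex of 0.04 to 0.62. In migrating cells (6.78% of genes higher and 6.67% lower) and mature cells (6.17% and 6.05%) the groups overlapped for all members, and in maturing cells DCLK2 was lower in both LPS fetuses with a log2 difference of -0.05 in the male pair and a smaller one in the female pair (4.55% of 6346 genes were lower and 5.92% higher there). ASTN2 had the largest fold changes of committing and migrating cells, 0.62 (SE 0.85) and 0.47 (SE 0.84), at levels near or below the free RNA estimate. Leaving out the LPS male turned them to -1.14 and -1.25, and leaving out any 1 of the other libraries gave 0.17 to 1.40 and 0.0064 to 1.24.

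In PAX2 interneurons the members' log2 fold changes ran from -0.24 for DCX to 0.48 for ASTN2, and the groups overlapped for all 9, where 7.25% of genes were higher and 7.8% lower. ASTN2 was at 650.1 and 636 CPM in the Control female and male and at 506 and 1337 CPM in the LPS female and male, so the LPS fetuses lay on either side of the Controls (SE 0.48, interval -0.69 to 1.65). Without the LPS male the fold change was -0.31. The free RNA estimate in this class was also highest in the LPS male, at 27.0% of UMIs, against 12.1 to 18.5% in the others. With free RNA subtracted ASTN2 was at 591 and 496 CPM in the Control female and male and at 462 and 1280 CPM in the LPS female and male. In molecular layer interneurons DCLK2 was at 593 and 598 CPM in the Controls and 472 and 308 in the LPS fetuses, with a log2 fold change of -0.61 (SE 0.45, interval -1.64 to 0.41), which was -0.28 without the LPS male and -1.09 without the LPS female. Both LPS fetuses were below both Controls, as were 9.25% of 6829 genes there. In this class NDEL1 did not pass the filter on low counts and was higher in both LPS fetuses (12.5% of genes were higher), from 3.14 CPM in the Control female and 16.2 in the Control male to 16.5 in the LPS female and 27.6 in the LPS male. In Golgi cells NDEL1 had -0.81 (SE 0.88), which was -0.15 without the LPS female and -1.32 without the LPS male, and the groups overlapped for all members, as they did in Purkinje cells. In Golgi cells 8.54% of genes were higher and 8.68% lower in both LPS fetuses, and in Purkinje cells 10.8% and 7.63%.

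**Figure D4:**
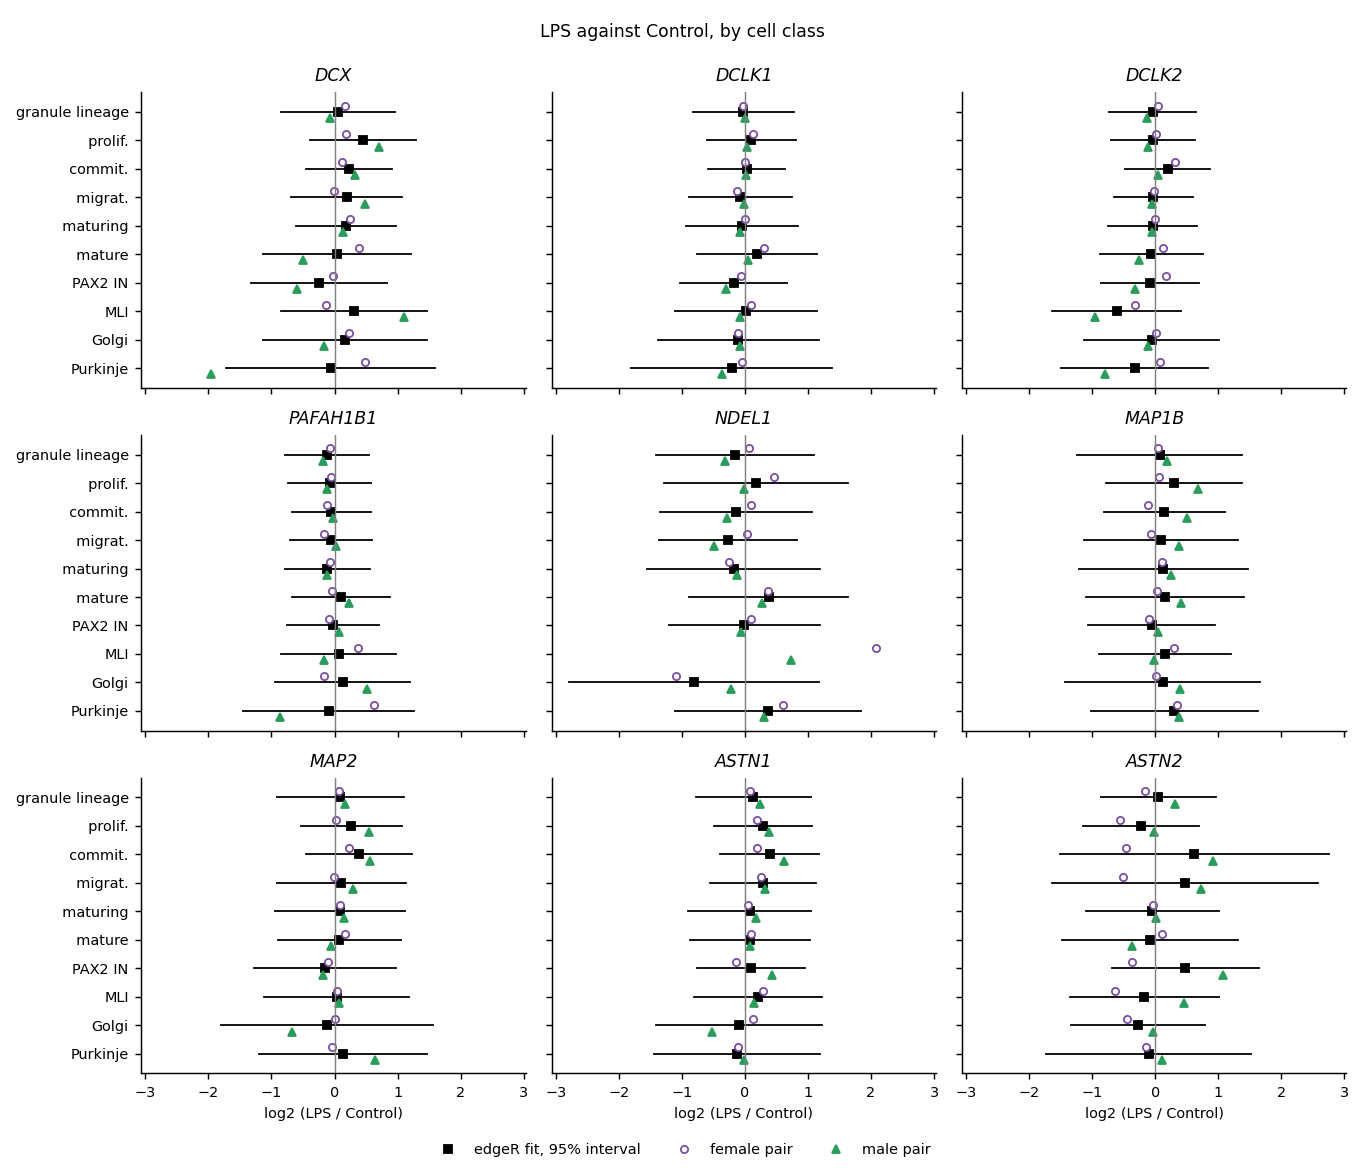
Log2 ratio of LPS over Control for the 9 genes in the granule lineage, its 5 stages and 4 other classes of neurons, as the edgeR fit with its 95% interval (black squares and lines) and as the ratio within the female pair (open circles) and the male pair (triangles). All intervals include 0, and NDEL1 has no fit in MLI, where it failed the filter on low counts.

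The lists of related genes were also without a call. In the granule lineage 0 of 15 tested LIS1, NDEL1 and dynein partners, 0 of 17 other microtubule-associated proteins, 0 of 8 tubulins and 0 of 17 genes of actin and polarity passed the test, and none of them had an unadjusted p under 0.05. Their median log2 fold changes were -0.07, -0.11, 0.44 and 0.05, beside 0.01 over all genes. Of the dynein partners, DYNC1I1, an intermediate chain of dynein, had the largest fold change at 1.28 (SE 0.64), from 37.1 and 28.0 CPM in the Control female and male to 37.2 and 122 in the LPS female and male, followed by CDK5R1, the activator p35 of CDK5, at 0.32 (SE 0.73). The tubulins TUBB4B (0.58, SE 0.42) and TUBB2B (0.54, SE 0.88) were higher in the LPS than the Control fetus of both sexes. So was STMN1, which destabilizes microtubules (0.50, SE 0.84), with 51.8 and 56.2 CPM in the Control and LPS male. These genes were named for the size of their fold change. The share of all genes higher in both pairs was not computed. TUBB2B was at 190.2 and 46.8 CPM in the Control female and male and at 269 and 87.5 in the LPS female and male, so that the difference between the sexes exceeded that between the groups. DCDC2, a doublecortin-domain gene, was at 1.17 to 2.56 CPM (-0.55, SE 0.63). CFL1, which severs actin filaments, had 0.58 (SE 0.86) and was also higher in the LPS fetus of both sexes. The raised value of DYNC1I1 came from the LPS male alone, the fetus with the most mature granule nuclei, and the part of stage shares in it was not tested.

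The members were also compared between the sexes, which differed in depth. In the granule lineage DCX, DCLK1, MAP1B, MAP2 and ASTN1 were higher in both females than in both males and PAFAH1B1 and NDEL1 were lower, 5 and 2 of the 9 members. Of 6820 genes 28.7% were higher and 42.8% lower in both females. MAP1B in the females was 0.83 above the males on the log2 scale and MAP2 0.54, while NDEL1 was 0.88 below. The granule nuclei of the females had median UMI numbers of 4354 and 3913 in Control and LPS and those of the males 1734 and 2690, so sex and depth cannot be told apart. For MAP1B the difference within a sex between LPS and Control was 0.04 in the females and 0.19 in the males, and for NDEL1 it was 0.06 and -0.31.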

How the data were processed

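The deposited files hold, per the file headers and the labels, UMI counts per gene and barcode that the authors made with Cell Ranger from 10x 3′ libraries (kit 3.1), introns included, on the rhesus genome Mmul_8.0.1, and neither normalized nor filtered. The submitters' processing notes name Cell Ranger 4 and the extraction protocol Cell Ranger 5.0. The removal of free RNA described by the study is not in these counts. Genes without a symbol (9483) were named from their IDs where a table of gene names allowed it (883).

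Barcodes with 500 or more genes were integrated across the 4 libraries with Seurat 5.3.0 (2000 variable features without the 9 members, 30 dimensions, resolution 0.5) in R 4.3.3, and granule nuclei were clustered again. The clusters of all nuclei numbered 23. A cluster took the marker list with the highest mean log2 difference provided that 3 or more genes of that list exceeded the mean of the clusters by 0.5, first between groups of classes and then, for interneurons and astroglia, within them by markers of 1 list only. This 2-step scoring was set after the clusters were seen, in place of a difference from all other nuclei, and left cell-cycle genes out of the class markers. Clusters with a depth under 0.3333 of the library median and no own markers among the 10 leading genes, or with over 50% doublets (Scrublet in scanpy 1.11.5), were left unnamed. Doublets stayed in elsewhere. Scrublet's automatic threshold failed in both male libraries, where the median of the other thresholds was used.

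UMIs were summed per class and fetus, and the fetus was the replicate. LPS was tested against Control with edgeR 4.0.16 (filterByExpr, TMM, quasi-likelihood test) over all genes, and a gene was called where its log2 fold change exceeded 0.25 in size and its adjusted p was below 0.1; the study used the same figures for a test over single nuclei and a log fold change whose base it does not give, so the thresholds are not equivalent. DESeq2 1.42.0 and other settings were alternatives. 95% intervals of fold changes come from the SE and the degrees of freedom of the edgeR fit. Differences between stages are log2 ratios of CPM + 1 within each fetus. Free RNA was profiled in barcodes with at most 100 UMIs, and its share in a class is the 0.25 quantile of the ratio of other classes' markers to their share in free RNA. Shares of nuclei were computed exactly for 1000 UMIs per nucleus. Python 3.11.15, numpy 2.4.6, scipy 1.17.1, pandas 2.3.3 and matplotlib 3.10.9 were used.

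The members, marker lists, lists of related genes and tests were chosen with earlier results of these data known. In every comparison all 9 members were named, of each list of related genes the 2 with the largest absolute fold change in the granule lineage, and for each member the 2 genes of highest correlation; some of these are not reported here. The labels give no replicate numbers, and only sex is shared between the groups.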

Additional observations from a re-analysis of the deposited data

Results flagged for a closer look

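A result was flagged where LPS and Control differed in opposite directions in the female and the male pair, each by at least 0.25 on the log2 scale. The share of all genes that meet this rule was not computed. Whether the members meet it more often than other genes is therefore not known. The difference between the sexes was not tested, since each sex has 1 fetus per group. ASTN2 met the rule in 4 classes. In committing granule cells its log2 difference was -0.47 in females and 0.91 in males (1.38 apart). In migrating granule cells it was -0.51 and 0.73 (1.24 apart), and both stages were near or below the free RNA estimate. In PAX2 interneurons the ASTN2 difference was -0.36 in females and 1.07 in males (1.43 apart), and in molecular layer interneurons -0.63 and 0.46 (1.09 apart). DCX in mature granule cells had 0.39 in females and -0.50 in males (males minus females -0.90). In Purkinje cells DCX had 0.49 and -1.97 (-2.45) and PAFAH1B1 0.63 and -0.87 (-1.498), with 15 to 54 nuclei in a fetus. Only 13.3% of the 15 Purkinje nuclei of the LPS male held a DCX UMI, so this DCX value is near the floor.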

How the results depend on the processing

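Each group has 2 fetuses, and the 95% intervals of the members' fold changes are wide. With sex as a replicate block 7 genes in proliferating precursors and 5 in committing cells passed the threshold (0 without it), none a member, and NDEL1 in PAX2 interneurons was 0.00072 (-0.01 without the block). With no filter on low counts 5 genes passed in proliferating precursors, 10 in migrating and 8 in mature granule cells, 2 in PAX2, 18 in molecular layer and 1 in Golgi interneurons and 4 in Purkinje cells, and with DESeq2 1 in migrating and 2 in maturing cells, against 0. DCLK1 in the granule lineage was 0.032 with free RNA subtracted (-0.02), and in PAX2 interneurons PAFAH1B1 was 0.0049 without doublets (-0.03) and NDEL1 0.063 at 1000 or more genes (-0.01). The cause of these changes was not tested.

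Without 1 library, log2 fold changes in the granule lineage ran from -0.26 to 0.32 for DCX, -0.20 to 0.21 for DCLK1, -0.11 to 0.028 for DCLK2, -0.57 to 0.42 for NDEL1, -0.36 to 0.70 for MAP1B, -0.21 to 0.53 for MAP2, -0.13 to 0.50 for ASTN1 and -0.16 to 0.34 for ASTN2. In PAX2 interneurons they ran from -0.91 to 0.19 for DCX, -0.46 to 0.040 for DCLK1, -0.28 to 0.087 for DCLK2, -0.15 to 0.12 for PAFAH1B1, -0.36 to 0.42 for NDEL1, -0.42 to 0.40 for MAP1B, -0.69 to 0.35 for MAP2, -0.19 to 0.46 for ASTN1 and -0.31 to 0.97 for ASTN2. They ran from -0.10 to 0.58 for ASTN1 in all nuclei, -0.037 to 0.39 for DCX in maturing, -1.14 to 1.40 for ASTN2 in committing and -1.25 to 1.24 for ASTN2 in migrating cells. Genes past the threshold numbered 0 to 79 in proliferating precursors, 0 to 1 in migrating cells, 0 to 1 in PAX2, 6 to 21 in molecular layer and 0 to 7 in Golgi interneurons and 1 to 11 in Purkinje cells; the lone fetus of a group was then assumed to vary like the others.

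Between stages, the members lower in committing than in proliferating cells in all fetuses numbered 1, not 2, without doublets, with the members among the clustering features and at a granule resolution of 0.8, where DCLK1 was 0.011 (-0.21). ASTN2 from committing to migrating cells was 1.87 with free RNA subtracted (-0.13), with 0 CPM in all committing cells, so that this value depends on the 1 CPM added before the log. Members higher in mature than in maturing cells numbered 0, not 1, at 1000 or more genes and with free RNA subtracted, and those higher in Purkinje cells than in the granule lineage 1, not 2, with the members among the features. Members higher in molecular layer than in PAX2 interneurons numbered 1 to 2 without 1 library. Subtraction of free RNA was not run for all nuclei together.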
